A study of Mus musculus with 4 samples.

Results

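The tumor necrosis factor (TNF) receptor genes and 7 genes of the NF-kB response were measured in the popliteal lymph node (PLN), the node that drains the mouse hind limb, together with the mouse Tnf gene. The genes were taken by symbol and are 10 of the 32287 features counted: Tnf, Tnfrsf1a, Tnfrsf1b, Nfkbia, Tnfaip3, Nfkb2, Relb, Icam1, Birc3 and Tnfaip2. All 10 passed the filter on low counts in every comparison. The TNF-Tg mice studied here carry a human TNF transgene, which drives an inflammatory and erosive arthritis. That transgene is not among the features: every feature had a mouse gene identifier, and only 1 was named Tnf. The Tnf values below are those of the mouse feature, and whether any reads of the human transgene were assigned to it was not tested.

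All mice were C57BL/6 males. The WT capture area held 10 PLNs of 5 wild-type mice at 5.5 months, and the Early area held 6 PLNs of 3 TNF-Tg mice at 5.5 months. The Advanced 1 and Advanced 2 areas each held 6 PLNs of TNF-Tg mice at 8.5 to 9 months, from 6 mice in all. Every mouse, WT included, had Evan's blue dye injected at the hindpaw so that the node could be found. Each area carried 1 section with nodes of several mice side by side, and the files do not assign spots to mice, so the capture area was the unit of replication. WT and Early had 1 area each, and all p-values rest on the spread between areas. Advanced mice differed from WT mice in both genotype and age, and these cannot be told apart.

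Messenger RNA was captured on barcoded spots, each wide enough to catch RNA of several neighboring cells, and unique molecular identifiers (UMIs) were counted. The WT area had 833 spots under tissue with 1808678 UMIs, and the Early area had 1489 spots with 5180493 UMIs. Advanced 1 had 2015 spots with 3378219 UMIs, and Advanced 2 had 1782 spots with 3198238 UMIs. Levels are given as UMIs per 10000 UMIs of an area, or of part of it, with a 95% exact Poisson interval that covers counting error only. Because the counting was by transcript 3′ tags, levels of the same gene were compared between areas, and a gene or marker with more UMIs than another is not read as more strongly expressed. In such sums over spots, fewer cells of a type and less RNA per cell cannot be told apart. The tissue label held against its markers: all 8 follicle markers and all 8 T cell zone markers were detected on each of the 4 areas. Muscle markers, from tissue around the node, reached 0.253 UMIs per 10000 on Advanced 2 and were at 0.130 or below on the other areas.

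TNF binds the receptors encoded by Tnfrsf1a (TNFR1), found on most cells, and Tnfrsf1b (TNFR2), found mainly on leukocytes and endothelium. Both receptors lead to release of NF-kB dimers from their inhibitors, and NF-kB in turn transcribes its own inhibitors Nfkbia (IkB-alpha) and Tnfaip3 (A20), so that the response limits itself. A second branch, run by lymphotoxin and CD40, processes the Nfkb2 product p100 to p52, the partner of RelB, and is known for its role in building lymph nodes and follicles.

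On GRCm38, Tnf lies at chr17:35199381-35202007 on the minus strand, and no other annotated gene overlaps it. The receptors are at chr6:125349362-125362484 on the plus strand (Tnfrsf1a) and chr4:145213463-145246870 on the minus strand (Tnfrsf1b). The inhibitor genes are at chr12:55489410-55492647 (Nfkbia) and chr10:19000910-19015657 (Tnfaip3), both on the minus strand. Nfkb2 spans chr19:46304320-46312385 on the plus strand, where Psd overlaps it on the opposite strand, and Relb spans chr7:19606217-19629438 on the minus strand. Icam1 is at chr9:21015985-21028817 and Tnfaip2 is at chr12:111442469-111455018, both on the plus strand and each overlapped on the opposite strand by a predicted gene. Birc3 is at chr9:7848699-7873186 on the minus strand.

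The response genes are commonly read through NF-kB sites near their start, so the 250 bases before the start site were searched on both strands for a stringent form of the NF-kB motif, GGG then any 3 bases then TTCC, in the RefSeq promoters of GRCm38.p6. Promoters were given for 9 of the 10 genes, all but Relb. The stringent form was present in 3 of these 9, Nfkbia, Tnfaip3 and Nfkb2, and in 4.6% of 27025 promoters of the same length. The looser form, GGG then any 5 bases then CC, which contains every match of the stringent form, was in all 9 and in 45.4% of all promoters. Such a match describes the letters only. The promoter of Nfkbia, the gene with the most UMIs to count among the 10, is shown in full for the 250 bases before its start at chr12:55492648-55492897 (minus strand). For Tnfaip3 and Nfkb2 only 30 bases around each match are shown. Capitals mark the match to the stringent form, on the opposite strand in all but the second Nfkb2 window. The windows are at chr10:19015411-19015440 (minus strand), chr19:46304689-46304718 and chr19:46304707-46304736 (plus strand), and the Nfkb2 windows overlap. The RefSeq start used here lies 247 bases inside the annotated span of Tnfaip3 and 417 bases inside that of Nfkb2, so these windows are within the gene spans given above, while the start of Nfkbia is that of its span.
Nfkbia: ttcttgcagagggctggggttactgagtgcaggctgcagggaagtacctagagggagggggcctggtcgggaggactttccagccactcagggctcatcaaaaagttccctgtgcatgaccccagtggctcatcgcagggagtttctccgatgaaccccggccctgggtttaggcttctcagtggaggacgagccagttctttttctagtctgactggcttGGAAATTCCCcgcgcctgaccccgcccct
Tnfaip3: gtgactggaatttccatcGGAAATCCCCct
Nfkb2, first window: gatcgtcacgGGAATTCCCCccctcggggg
Nfkb2, second window: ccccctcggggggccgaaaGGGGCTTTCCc

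The first question was how the genes differed between the WT area and the Early area of the same age. Of the 10 genes, 8 were higher on the Early area beyond counting error, Tnfrsf1a was lower, and Tnfrsf1b was not separated. With 1 area against 1, there was no replicate check and no test. The interval of the Early to WT ratio lay above 1 for 13.7% of 13524 genes and below 1 for 11.1%, and the median log2 ratio was 0.72 over the 10 genes against 0.03 over all genes.

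For the ligand Tnf, the level was 0.0995 UMIs per 10000 on WT (interval 0.0590 to 0.157), 0.224 on Early (0.185 to 0.269), 0.234 on Advanced 1 (0.185 to 0.291) and 0.178 on Advanced 2 (0.135 to 0.231). It rested on 18 UMIs on WT and 270 in all, so only large differences were detectable at this depth. The Early level was 2.25 times the WT level (interval 1.36 to 3.93), while the 3 TNF-Tg areas had overlapping intervals and that of Advanced 2 also reached into the WT interval.

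Tnfrsf1a had its highest level on WT, at 1.91 UMIs per 10000 (1.71 to 2.12), against 1.37 on Early, 1.23 on Advanced 1 and 1.45 on Advanced 2. All 3 TNF-Tg areas were below the WT interval, with an Early to WT ratio of 0.719 (0.631 to 0.820). In interior spots alone, as defined below, the ratio was 1.01, with an interval from 0.754 to 1.36. Tnfrsf1b was at 0.630 on WT, 0.571 on Early, 0.616 on Advanced 1 and 0.544 on Advanced 2. Its intervals overlapped between neighbouring areas in this order of levels, and its ratio of 0.907 had an interval from 0.728 to 1.14.

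The inhibitor Nfkbia, whose protein holds NF-kB dimers in the cytoplasm, was at 2.33 UMIs per 10000 on WT, 3.90 on Early, 2.76 on Advanced 1 and 3.10 on Advanced 2. Early was the highest and WT the lowest, with the Advanced areas between them and overlapping each other. The Early to WT ratio was 1.68 (1.51 to 1.87). Tnfaip3, a ubiquitin-editing enzyme that shuts off signaling from TNFR1, was at 0.636 on WT, 1.09 on Early, 0.787 on Advanced 1 and 0.825 on Advanced 2, in the same order of areas. Its ratio was 1.71 (1.40 to 2.11), and unlike for Nfkbia its Advanced 1 interval overlapped that of WT.

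Among the NF-kB subunits, Nfkb2 was at 1.39 UMIs per 10000 on WT, 2.27 on Early, 2.13 on Advanced 1 and 2.02 on Advanced 2. WT stood below the TNF-Tg areas, and neighbours in the order Early, Advanced 1 and Advanced 2 overlapped. Relb was at 1.27 on WT, 2.13 on Early, 1.61 on Advanced 1 and 2.48 on Advanced 2. No neighbouring intervals overlapped for Relb, and the Advanced areas fell on opposite sides of Early. The Early to WT ratios were 1.63 (1.42 to 1.88) for Nfkb2 and 1.67 (1.45 to 1.93) for Relb.

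Among the targets, Icam1, the adhesion molecule that leukocyte integrins bind on endothelium and antigen-presenting cells, was at 2.10 UMIs per 10000 on WT, 3.34 on Early, 2.30 on Advanced 1 and 2.96 on Advanced 2. Birc3, a ubiquitin ligase of the TNF receptor complex that protects from cell death, was at 1.19 on WT, 1.67 on Early, 1.46 on Advanced 1 and 2.07 on Advanced 2. Tnfaip2, a TNF-induced gene of myeloid and endothelial cells, was at 0.713 on WT, 1.20 on Early, 0.722 on Advanced 1 and 1.15 on Advanced 2. For all 3, Advanced 1 overlapped WT while Advanced 2 and Early were above WT, and for Birc3 Advanced 1 overlapped Early as well. The Early to WT ratios were 1.59 (1.42 to 1.78) for Icam1, 1.41 (1.21 to 1.64) for Birc3 and 1.68 (1.39 to 2.04) for Tnfaip2.

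**Figure D1:**
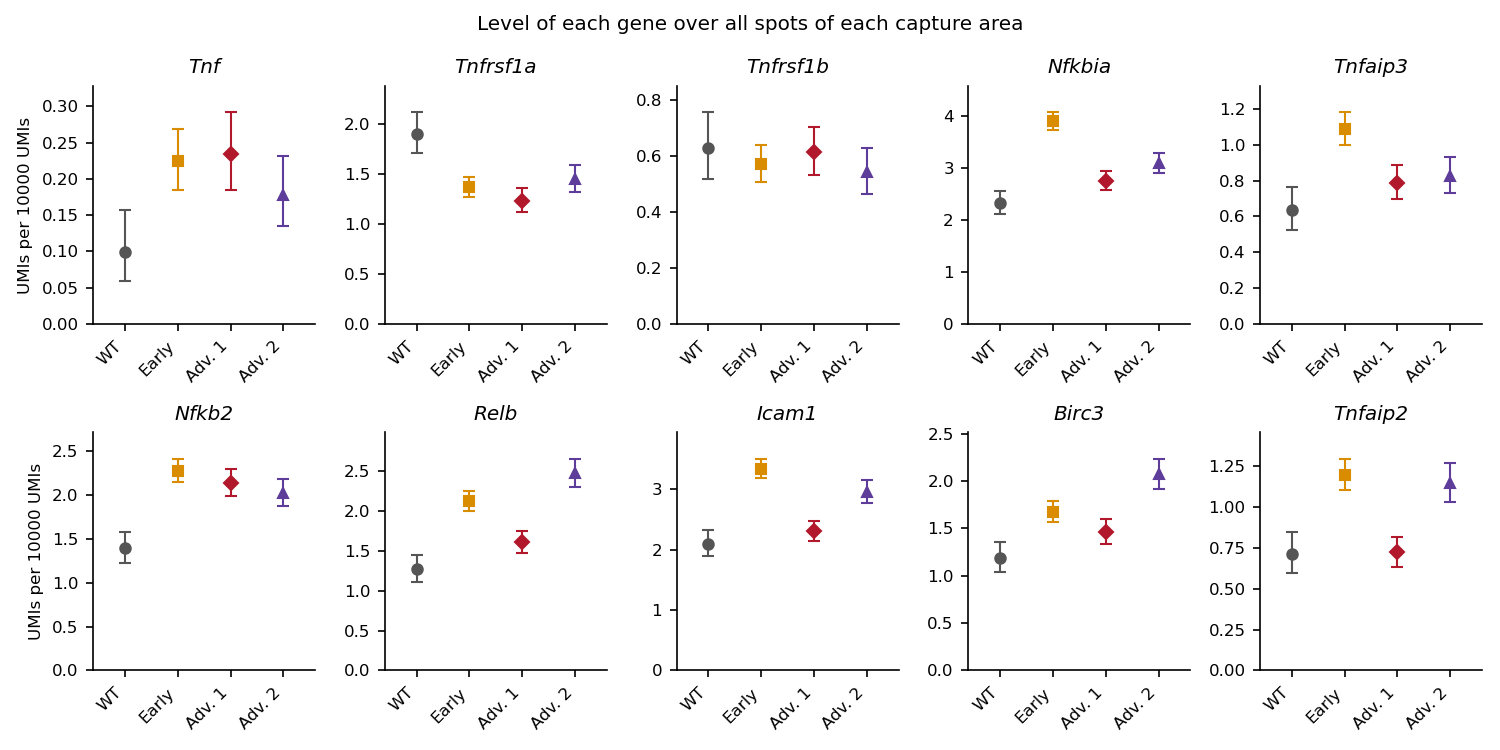
UMIs per 10000 UMIs (vertical axis, from 0) of each of the 10 genes over all spots of the 4 capture areas (horizontal axis), with 95% Poisson intervals as bars. WT was the lowest area for 8 genes and the highest for Tnfrsf1a, at 1.91, and Tnfrsf1b, at 0.630.

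The lists of other pathway genes were read the same way, against 13.7% of all genes above 1 and 11.1% below. Of 11 NF-kB subunit, inhibitor and kinase genes, 6 were above 1 in the Early to WT ratio beyond counting error (Bcl3, Rel, Nfkbie, Nfkbiz, Nfkbib and Chuk) and Ikbkb was below. For Ikbkb, the catalytic kinase that marks Nfkbia protein for breakdown, the direction turned with the position of the spots relative to the tissue edge: the ratio was 0.769 (0.740 to 0.799) over all spots, 0.538 (0.512 to 0.565) in interior spots and 1.07 (1.01 to 1.14) in rim spots. Of 18 genes of the TNF receptor complex, 8 were above and none below, with Tnip1, a partner of A20, at 2.10 (1.79 to 2.48). In the lymphotoxin branch of 7 genes, Lta, Ltb and Cd40 were above and the receptor Ltbr was below at 0.616 (0.503 to 0.756). Of 20 other NF-kB targets, 8 were above and 5 below (Gadd45b, Bcl2l1, Vcam1, Ccl5 and Il1b). Ccl20, a chemokine that attracts CCR6-bearing cells and which was singled out after its values were seen, had a ratio of 8.03 (5.47 to 12.3). Its level was 0.149 UMIs per 10000 on WT, 1.20 on Early, 0.334 on Advanced 1 and 0.360 on Advanced 2. Sele was at 0 UMIs on every area, where 3 UMIs would have been 0.0166 per 10000 on WT and 0.00579 on Early.

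**Figure D2:**
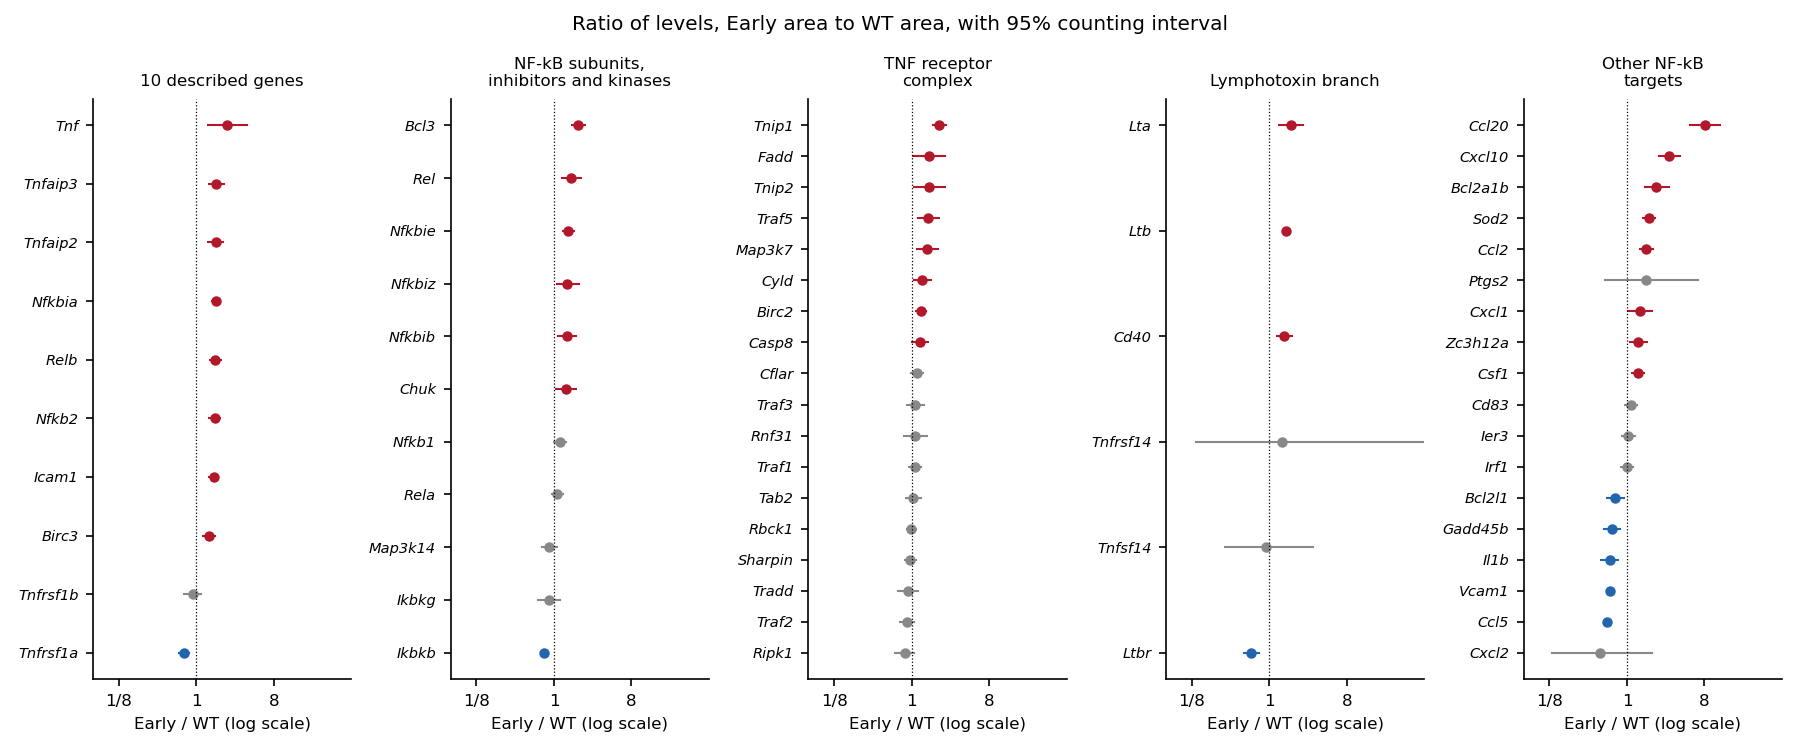
Ratio of the Early level to the WT level (horizontal axis, log scale) for the 10 genes and the 4 pathway lists, with 95% counting intervals. Red intervals lie above 1 and blue intervals below 1, grey intervals span 1, and the interval of Tnfrsf14 runs past the axis. Each list holds both red and blue intervals except the TNF receptor complex, where 8 of 18 are red and none blue.

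Tissue makeup also differed between these areas. The 8 follicle markers summed to 19.4 UMIs per 10000 on WT, 52.7 on Early, 36.3 on Advanced 1 and 30.2 on Advanced 2, with Cxcl13 holding the most UMIs on the TNF-Tg areas and Cd79b on WT. The 8 sinus macrophage markers summed to 45.6, 34.7, 25.7 and 32.4 in the same order, with Marco holding the most UMIs on every area, and the 6 lymphatic endothelium markers to 18.2, 7.85, 12.7 and 14.0, with Ccl21a holding the most UMIs. The 7 neutrophil markers summed to 5.99, 4.09, 10.2 and 5.61, with S100a9 holding the most UMIs, and the 5 red cell markers to 3.71, 14.9, 13.1 and 11.0, with Hbb-bs holding the most UMIs and Alas2 at 0 on WT. The 6 blood endothelium markers summed to 6.87, 12.9, 15.0 and 9.90, with Pecam1 holding the most UMIs on WT and Glycam1 on the others. Immunoglobulin genes took 8.16% of UMIs on WT and 3.96% on Early. The ratios were also taken within kinds of spots, an alternative chosen after seeing the data. In rim spots 8 of the 10 genes had an interval above 1 and 1 below, against 13.3% and 11.9% of all genes, and in interior spots 7 and 0, against 7.36% and 4.95%. In spots rich in sinus macrophage markers the counts were 7 and 0, against 11.1% and 5.56%, and in the remaining spots of that split 7 and 1, against 11.6% and 12.2%. In spots rich in follicle markers, where the WT area had 262590 UMIs in all, they were 2 and 0, against 3.94% and 6.42%, and in the remaining spots of that split 8 and 1, against 13.7% and 9.23%. By level alone, 9 of the 10 genes were above WT in follicle-rich spots and 9 in interior spots. The share of all genes above WT by level alone was not taken in these spots, so these 2 counts have no background. In follicle-rich spots Nfkbia had a ratio of 1.46 (1.17 to 1.85) and Tnfaip2 of 1.98 (1.06 to 4.11), while Nfkb2 had 1.12 (0.835 to 1.52). The marker-rich classes were set within each area and did not match makeup between areas. In follicle-rich spots the follicle markers were at 48.1 UMIs per 10000 on WT and 95.7 on Early. In the remaining spots they were at 14.0 and 40.1. The sinus macrophage markers were at 89.6 and 74.2 in the spots rich in them, and at 21.2 and 15.8 in the rest. The part of tissue makeup in the ratios, over all spots or within these classes, was not tested.

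The next question was whether the genes differed between Advanced and Early TNF-Tg nodes. In edgeR (quasi-likelihood test, p adjusted after Benjamini and Hochberg over all genes), 0 of the 10 genes passed 0.05, against 1.16% of 13524 genes (71 higher and 86 lower in Advanced, and 94 higher and 48 lower with total UMIs as the library size in place of TMM). DESeq2 also called 0 of the 10, and 4 had an unadjusted p under 0.05 in edgeR. The spread came from the 2 Advanced areas alone, with Early assumed to vary like them. Nfkbia was at 2.93 ± 0.242 UMIs per 10000 in Advanced (SD, n = 2) against 3.90 in Early, a fitted log2 difference of -0.49 ± 0.17 (SE) with adjusted p = 0.162 in edgeR. Tnfaip3 was at 0.806 ± 0.0269 against 1.09, a log2 difference of -0.51 ± 0.20 with adjusted p = 0.295 in edgeR. Both Advanced areas were below Early for these inhibitors and for Icam1, whose log2 difference was -0.42 ± 0.17 with adjusted p = 0.351 in edgeR.

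For Birc3 and Relb the Advanced areas lay on both sides of Early. Their log2 differences were 0.00 ± 0.18 and -0.13 ± 0.18. Over the 10 genes the median log2 difference was -0.20, against 0.01 over all genes. Of the 10, 9 were below 0 (8 with total UMIs as the library size), while 51.5% of all genes were above 0. In rim spots, 0 of the 10 were called against a background of 0.117% (0.0934% higher and 0.0234% lower) and in interior spots 0 against 0.287%. DESeq2 called 0 in both, and 2 and 1 of the 10 had an unadjusted p under 0.05 in edgeR. The interior difference of Tnfaip3, -0.71 ± 0.27 with adjusted p = 0.643 in edgeR, came from 1.22 UMIs per 10000 in Early against 0.727 on Advanced 1 and 0.793 on Advanced 2.

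Among the pathway genes, other NF-kB targets were called lower in Advanced than in Early in 5 of 17 tested, and none higher. The shares over all genes were 0.636% lower and 0.525% higher. Ccl20 fell by 1.87 on the log2 scale (SE 0.21, adjusted p = 2.26e-15 in edgeR), and Cxcl1 and Cxcl10, chemokines for neutrophils and for activated T cells, fell by 1.05 and 1.03. The other called targets were Sod2, the mitochondrial superoxide dismutase, and Ccl2, a monocyte chemokine, whose interval on Advanced 2 overlapped that of Early. DESeq2 called 1 of these 5, Ccl20, and Ccl2 was not called with total UMIs as the library size or in spots of at least 500 UMIs. Of the 11 subunit, inhibitor and kinase genes, Ikbkb was called higher (log2 difference 0.52, SE 0.14, adjusted p = 0.0166 in edgeR). That call was lost with DESeq2 (adjusted p = 1.00) and in spots of at least 500 UMIs (0.340 in edgeR), and Ikbkb was not called in rim or interior spots alone. Its Advanced level was 1.51 times the Early level over all spots but 1.15 times in the rim and 1.18 times in the interior, and the areas differ in the share of UMIs from each zone, given below. The part of that share in the difference was not tested. No gene of the TNF receptor complex or the lymphotoxin branch was called, of 18 and 5 tested. Ccl20 was also called lower in the rim alone, at -1.41 ± 0.20, and in the interior alone, at -2.66 ± 0.40, and DESeq2 called neither.

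Advanced was then compared with WT in the same fit, so that both contrasts share the Advanced areas. Here too 0 of the 10 genes passed in edgeR, against 2.06% of 13524 genes (95 higher and 184 lower). With total UMIs as the library size the split was 169 higher and 133 lower and the median of all genes moved from 0.01 to 0.13, with the same number of the 10 genes above 0, and in the rim it was 49 and 69 in place of 37 and 91. DESeq2 called 0 of the 10, and 5 had an unadjusted p under 0.05 in edgeR. Tnfrsf1a was at 1.34 ± 0.153 UMIs per 10000 in Advanced (SD, n = 2) against 1.91 in WT, a log2 difference of -0.62 ± 0.19 with adjusted p = 0.053 in edgeR. It reached 0.0472 with immunoglobulin genes left out of the counts. Relb was at 2.04 ± 0.614 against 1.27, a log2 difference of 0.57 ± 0.20 with adjusted p = 0.121 in edgeR, which was 0.0337 with total UMIs as the library size. The Advanced areas disagreed for Relb, with a log2 difference of 0.86 without Advanced 1 and 0.21 without Advanced 2. Nfkb2 and Birc3 each had a log2 difference of 0.46, with adjusted p of 0.289 and 0.323 in edgeR. The median over the 10 was 0.25 against 0.01 over all genes, with 8 above 0 against 51.4% of all genes.

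Tnf was at 0.206 ± 0.0393 UMIs per 10000 in Advanced (SD, n = 2) against 0.0995 in WT, a log2 difference of 0.93 ± 0.42 with adjusted p = 0.361 in edgeR. In rim spots the difference was 1.66 ± 0.50 with adjusted p = 0.193 in edgeR, on 10 UMIs in the WT rim, and in interior spots it was -0.40 ± 0.66. The WT rim held 0.0697 UMIs per 10000 against 0.237 on Early, 0.291 on Advanced 1 and 0.189 on Advanced 2, so that every TNF-Tg rim exceeded the WT rim. Of the 10 genes, 0 were called in the rim (background 0.997%, with 0.288% higher and 0.709% lower) and 0 in the interior (0.321%). DESeq2 called 0 in both, and 5 and 0 had an unadjusted p under 0.05 in edgeR. Of the 17 other targets tested over all spots, Ccl20 was called higher in Advanced, at 0.334 and 0.360 UMIs per 10000, than in WT, at 0.149 (adjusted p = 0.0364 in edgeR). Il1b, the interleukin 1 beta gene, and Vcam1, an adhesion molecule of endothelium and stroma, were called lower at -1.03 ± 0.25 and -0.99 ± 0.16. DESeq2 called 1 of these 3, Vcam1. The shares over all genes in edgeR were 0.702% higher and 1.36% lower. No gene was called among the subunits, the receptor complex or the lymphotoxin branch.

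Position relative to the edge of the tissue was compared next. Rim spots had fewer than 6 neighbouring spots under tissue, and interior spots had all 6. Neither is a position within a node: 828 of 833 spots on WT and 2013 of 2015 on Advanced 1 formed 1 connected piece although each area held several nodes, so the rim is the edge of the spots called under tissue. The rim held 79.3% of UMIs on WT, 75.7% on Early, 47.9% on Advanced 1 and 64.5% on Advanced 2, with a median of 3166, 5541, 2113 and 3263 UMIs per spot against 140.5, 156, 222 and 250.5 in the interior. With the area as a block, 0 of the 10 genes passed in edgeR against 6.76% of 13524 genes (513 or 3.79% higher in the rim and 401 or 2.97% lower). DESeq2 called 0 of the 10, and 2 had an unadjusted p under 0.05 in edgeR. With total UMIs as the library size the split of all calls turned to 320 higher and 698 lower. The median of all genes moved from 0.00 to -0.09, and 5 of the 10 genes in place of 8 had a fitted difference above 0. Of all genes, 50.6% were above 0 with TMM.

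Tnfaip2 came closest. Its rim and interior levels were 0.690 and 0.803 UMIs per 10000 on WT, 1.12 and 1.43 on Early, 0.544 and 0.886 on Advanced 1, and 0.993 and 1.43 on Advanced 2. The rim was the lower zone on all 4 areas, with a log2 difference of -0.37 ± 0.12 and adjusted p = 0.0635 in edgeR. The adjusted p was 0.0160 with total UMIs as the library size, 0.0483 in spots of at least 500 UMIs and 0.0233 without WT. It was 0.315 with DESeq2, 0.549 without the area block in edgeR, 0.102 with a rim 1 step wider, 0.124 without Early, 0.290 without Advanced 1 and 0.278 without Advanced 2. With more steps from the edge of the tissue the level on Advanced 1 went from 0.544 at the edge through 0.641 and 0.694 to 1.00 at 3 or more steps, and on Advanced 2 from 0.993 through 1.36 and 1.40 to 1.48. On WT it was 0.690, 0.744, 0.851 and 1.11, on 99, 19, 7 and 4 UMIs with overlapping intervals, and on Early 1.12, 1.46, 1.78 and 1.15.

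Tnf had 0.0697 UMIs per 10000 in the WT rim and 0.214 in the WT interior, on 10 and 8 UMIs. The TNF-Tg areas had the higher level in the rim, by 0.35, 0.67 and 0.23 on the log2 scale on Early, Advanced 1 and Advanced 2. Tnfrsf1b was lower in the rim on 3 of 4 areas, most on Early with 0.502 against 0.787. Nfkb2 had a log2 difference of 0.23 ± 0.11 with adjusted p = 0.225 in edgeR. The remaining 6 genes had fitted differences between 0.00 and 0.13, and by level Relb was lower in the rim on all 4 areas, by at most 0.17 on the log2 scale.

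**Figure D3:**
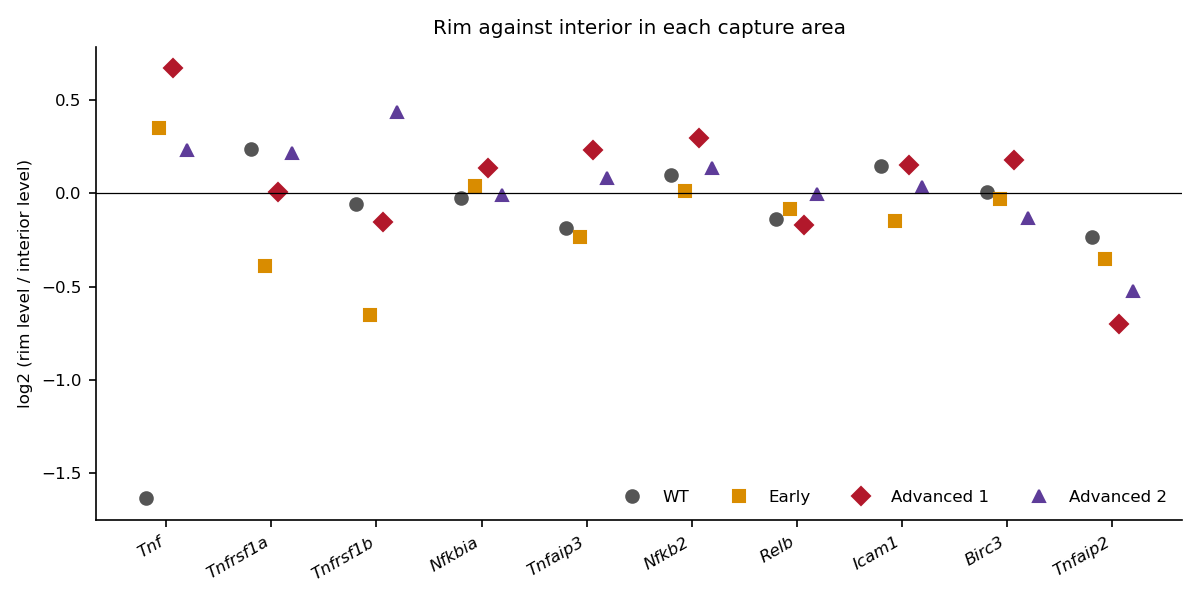
Log2 of the rim level over the interior level (vertical axis) for each gene on the 4 areas, 1 point per area. Tnfaip2 lies below 0 on all 4 areas, and the WT point of Tnf lies at -1.64, far from the other areas.

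**Figure D4:**
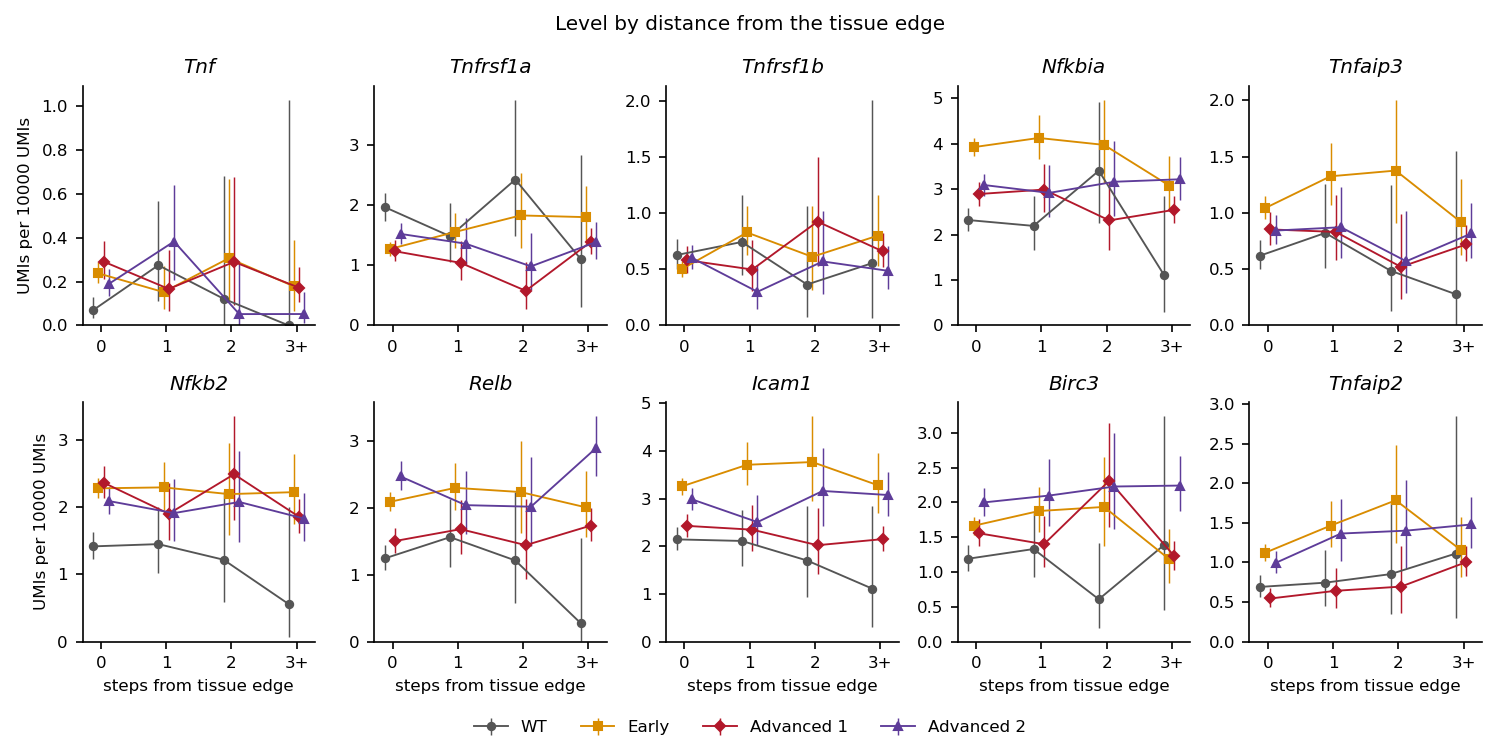
UMIs per 10000 UMIs (vertical axis) of each gene at 0, 1, 2 and 3 or more steps from the tissue edge (horizontal axis), with 95% Poisson intervals, 1 line per area. The intervals are wide on WT at 3 or more steps, where UMIs were few, and the Tnfaip2 level is higher at each further step from the edge on WT, Advanced 1 and Advanced 2 but not on Early.

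In the pathway lists, Ikbkb was called lower in the rim at -2.01 ± 0.14, and Rbck1, a subunit of the linear ubiquitin ligase, at -0.36 ± 0.11 (adjusted p = 0.0462 in edgeR). DESeq2 did not call Rbck1. Ikbkb rested on 28317 UMIs, 18915 of them in interior spots, which had few UMIs each, and its level on WT was 66.1 UMIs per 10000 in the interior against 9.28 in the rim. Whether all of these UMIs come from the Ikbkb transcript was not tested. Of 17 other targets tested, Ccl20 and the survival gene Bcl2a1b were called higher in the rim, at 1.70 ± 0.21 and 0.92 ± 0.17. Ccl2, the T cell chemokine Ccl5 and Il1b were called lower, at -0.96 ± 0.13, -0.92 ± 0.14 and -0.56 ± 0.16, and DESeq2 called all of these targets but Il1b. The shares over all genes in edgeR were 3.79% higher in the rim and 2.97% lower. Marker levels moved with the zones: follicle markers were at 56.6 UMIs per 10000 in the Early rim against 40.8 in its interior, and sinus macrophage markers at 29.4 against 51.3. On WT the follicle markers were at 19.3 in the rim and 19.7 in the interior, and the sinus macrophage markers at 49.0 and 32.6. Of spots rich in follicle markers, as defined below, 55.2% on Advanced 1 and 69.1% on Advanced 2 were rim spots, against 19.6% and 29.6% of the rest. For sinus macrophage markers these shares were 16.9% and 26.5% against 32.4% and 43.9%. The part of these markers in the rim differences was not tested.

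To place the genes by cell neighborhood, spots of at least 500 UMIs were split within each area into the 25% richest in a marker list and the rest, with lists that hold none of the 10 genes, and the areas served as replicates. In spots rich in sinus macrophage markers (Marco, Cd163, Siglec1, Cd68, Adgre1, Csf1r, Mrc1 and C1qa), 4 of the 10 genes were higher and 1 was lower, against 6.59% and 3.76% of 13466 genes in edgeR, 10.4% in all. The higher genes were Tnfaip2, Tnfrsf1a, Icam1 and Tnfaip3, and the lower gene was Tnf. The median spot had more UMIs in the rich group than in the rest on all 4 areas, 5797 against 3777 on Early.

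Tnfaip2 had 0.800 UMIs per 10000 in the macrophage-rich spots and 0.666 in the rest on WT, 1.96 and 0.822 on Early, 1.21 and 0.551 on Advanced 1, and 1.57 and 1.00 on Advanced 2. The rich spots were higher on all 4 areas, least on WT, and the log2 difference was 0.92 ± 0.14 (adjusted p = 0.00013 in edgeR). Tnfrsf1a had 2.43 and 1.70 on WT, 2.00 and 1.05 on Early, 1.54 and 1.14 on Advanced 1, and 2.14 and 1.27 on Advanced 2. It was higher on all 4 areas, with a log2 difference of 0.70 ± 0.12 (adjusted p = 0.000357 in edgeR).

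Icam1 had 3.01 and 1.59 on WT, 4.80 and 2.68 on Early, 2.35 and 2.35 on Advanced 1, and 3.92 and 2.66 on Advanced 2. Advanced 1 thus showed no difference to 3 digits, and the fitted log2 difference was 0.61 ± 0.14 (adjusted p = 0.00559 in edgeR, and 0.0945 without Early). Tnfaip3 rose by 0.53 ± 0.14 (adjusted p = 0.0184 in edgeR), with 0.907 and 0.465 on WT, 1.45 and 0.913 on Early, 0.813 and 0.787 on Advanced 1 and 1.05 and 0.774 on Advanced 2. This call was lost with DESeq2 (adjusted p = 0.115) and without WT (0.0580), Early (0.179) or Advanced 2 (0.0594). Tnf was at 0.0461 and 0.119 on WT, 0.148 and 0.265 on Early, 0.158 and 0.267 on Advanced 1, and 0.0872 and 0.215 on Advanced 2. It was lower in the rich spots on all 4 areas, on 3, 25, 15 and 7 UMIs there, with a log2 difference of -0.93 ± 0.25 (adjusted p = 0.0160 in edgeR). With DESeq2 the adjusted p was 0.166, with the richest 10% of spots 0.0846, and without Early or Advanced 2 it was 0.111 or 0.0882.

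In spots rich in follicle markers (among them Cr2, Fcer2a, Cxcl13 and Cxcr5), 3 of the 10 genes were higher and 2 lower, against 8.96% and 11.9% of 13466 genes in edgeR, 20.8% in all. Higher were Tnf, Nfkbia and Nfkb2, and lower were Tnfrsf1a and Tnfaip2. The median spot had fewer UMIs in the rich group than in the rest on WT, Early and Advanced 1, 1594 against 2869 on WT. On Advanced 2 it had 2166.5 against 1991. The lists are split on the same spots, so the macrophage and follicle results are not independent of each other.

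Tnfrsf1a had 0.914 UMIs per 10000 in follicle-rich spots and 2.16 in the rest on WT, 0.718 and 1.55 on Early, 0.936 and 1.36 on Advanced 1, and 1.02 and 1.67 on Advanced 2. It was lower on all 4 areas, with a log2 difference of -0.92 ± 0.13 (adjusted p = 3.49e-11 in edgeR). Tnfaip2 was also lower on all 4 areas, at 0.419 and 0.768 on WT, 0.831 and 1.31 on Early, 0.561 and 0.804 on Advanced 1, and 0.812 and 1.27 on Advanced 2. Its log2 difference was -0.69 ± 0.14 (adjusted p = 1.5e-05 in edgeR). Tnfrsf1b did not pass, at -0.39 ± 0.16 (adjusted p = 0.0725 in edgeR). Icam1 did not pass either, at -0.20 (adjusted p = 0.207 in edgeR), but was called lower without Advanced 1, at -0.37 (0.0085).

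Nfkbia had 3.43 UMIs per 10000 in follicle-rich spots and 2.08 in the rest on WT, 5.01 and 3.58 on Early, 3.72 and 2.47 on Advanced 1, and 3.29 and 3.07 on Advanced 2. All 4 areas were higher, least on Advanced 2, and the log2 difference was 0.40 ± 0.10 (adjusted p = 0.00137 in edgeR). Tnf had 0.190 and 0.0741 on WT, 0.286 and 0.209 on Early, 0.414 and 0.180 on Advanced 1, and 0.353 and 0.123 on Advanced 2, again higher on all 4. Its log2 difference was 0.97 ± 0.25 (adjusted p = 0.000871 in edgeR), and with the richest 10% of spots the adjusted p was 0.358. Nfkb2 had 2.13 and 1.27 on WT, 2.38 and 2.26 on Early, 2.85 and 1.99 on Advanced 1, and 2.34 and 1.96 on Advanced 2. It was higher on all 4 areas with a log2 difference of 0.30 ± 0.11 (adjusted p = 0.0398 in edgeR). That call was lost with DESeq2 (adjusted p = 0.170), with the richest 10% of spots (0.373), with spots of at least 1000 UMIs (0.0943) and without WT (0.134), Advanced 1 (0.224) or Advanced 2 (0.0676).

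**Figure D5:**
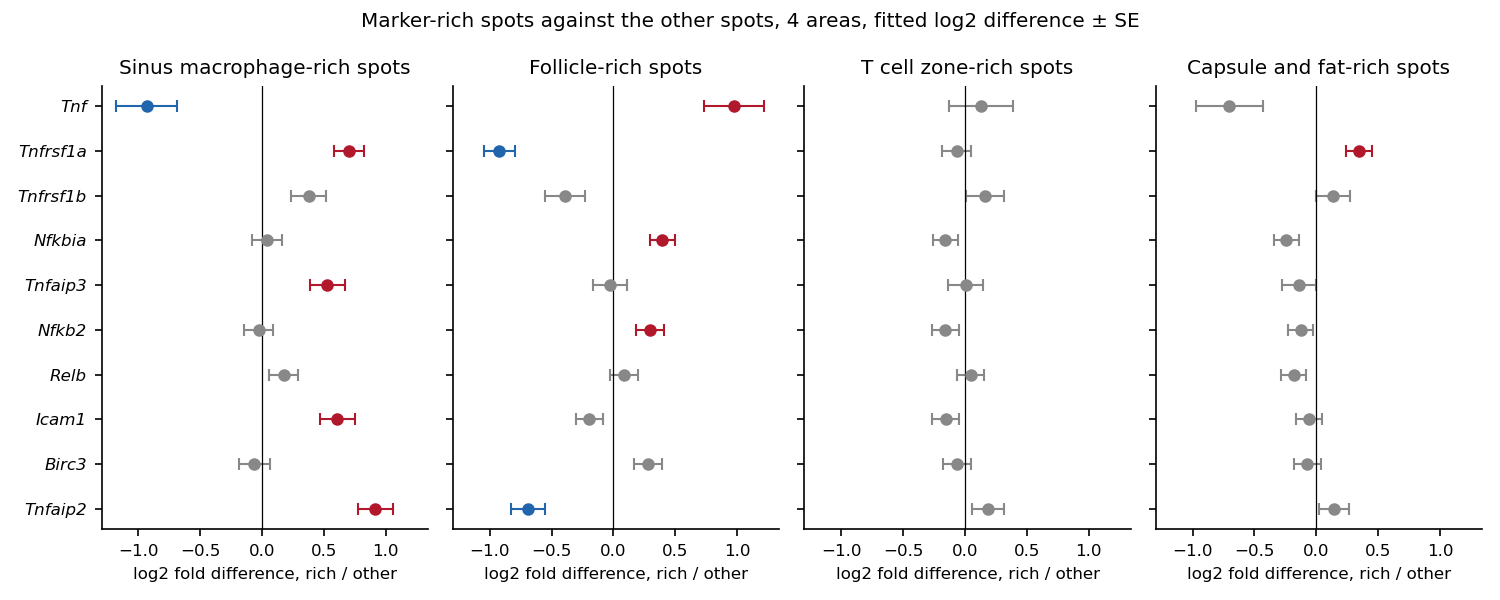
Fitted log2 difference (horizontal axis) between spots rich in each of 4 marker lists and the other spots, with SE bars, for the 10 genes over the 4 areas. Red points were called higher, blue points lower and grey points not called. Tnf lies at -0.93 for sinus macrophage markers and 0.97 for follicle markers, and Tnfrsf1a and Tnfaip2 lie on the opposite sides of 0.

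In spots rich in T cell zone markers, 0 of the 10 genes were called in edgeR, against 1.40% of 13466 genes (0.824% lower). DESeq2 called 0 as well, and 0 had an unadjusted p under 0.05 in edgeR. In spots rich in capsule and fat markers, Tnfrsf1a was higher at 0.34 ± 0.11 (adjusted p = 0.0291 in edgeR), against 5.22% of genes called higher, 3.88% lower and 9.10% in all. Its levels in the rich spots and the rest were 2.05 and 1.94 on WT, 1.76 and 1.18 on Early, 1.47 and 1.18 on Advanced 1, and 1.61 and 1.46 on Advanced 2. All 4 areas were higher, most on Early. The call was lost with DESeq2 (adjusted p = 0.366), with the richest 10% of spots (0.201) and without Early (0.360), Advanced 1 (0.0862) or Advanced 2 (0.0651). Tnf was not called, at -0.70 (adjusted p = 0.0996 in edgeR). It was called lower with the richest 10% of spots, at -1.52 (adjusted p = 0.0187 in edgeR), and without Advanced 1, at -1.24 (0.0138).

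The other pathway genes were compared over the same spots. In macrophage-rich spots 9 of 17 tested NF-kB targets were higher and 4 lower, against 6.59% and 3.76% of all genes. DESeq2 called 7 of these 13, and not Ccl2, Cxcl10 or Cxcl1. The largest differences were those of the chemokines Ccl2, at 1.37 ± 0.25, Cxcl10, at 1.22 ± 0.21, and Cxcl1, at 0.99 ± 0.25, while Ccl20, Bcl2a1b and Ccl5 were lower at -1.55 ± 0.24, -0.99 ± 0.20 and -0.68 ± 0.12. In follicle-rich spots 4 were higher and 10 lower, against 8.96% and 11.9% of all genes, and DESeq2 called 10 of these 14. Ccl20 was higher there at 1.74 ± 0.16, Bcl2a1b at 1.54 ± 0.16 and the activation marker Cd83 at 0.78 ± 0.12, and Ccl2, Cxcl10 and Il1b were lower at -2.33 ± 0.16, -1.87 ± 0.20 and -1.63 ± 0.22.

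For the lists that follow, the shares over all genes were 8.96% higher and 11.9% lower in follicle-rich spots. In macrophage-rich spots they were 6.59% and 3.76%. Of 5 lymphotoxin genes tested, Lta, Ltb and Cd40 were higher in follicle-rich spots, at 1.12 ± 0.17, 0.56 ± 0.10 and 0.49 ± 0.12, and the receptor Ltbr was lower at -1.04 ± 0.17. In macrophage-rich spots the signs were the other way for Lta, at -0.94 ± 0.18, and Ltbr, at 1.04 ± 0.13. Lta and Ltbr were thus called in opposite directions in both splits, as were Tnf and Tnfrsf1a, while the receptor gene Cd40 was called in the direction of Lta and Ltb in follicle-rich spots. DESeq2 called all of these lymphotoxin genes. Of 18 genes of the TNF receptor complex, 5 were higher in follicle-rich spots, among them the adaptor Traf5 at 0.95 ± 0.15, Sharpin at 0.66 ± 0.12 and Traf3 at 0.56 ± 0.15, and Ripk1, the kinase that can trigger cell death, was lower at -0.54 ± 0.19. DESeq2 called 3 of these 6, and neither Traf3 nor Ripk1. Of the subunits and kinases, Rel was higher in follicle-rich spots at 0.67 ± 0.15 and lower in macrophage-rich spots at -0.51 ± 0.16, and Nfkb1 was higher in follicle-rich spots at 0.40 ± 0.12. Bcl3 and Nfkbie, atypical and classical inhibitor family members, were higher in macrophage-rich spots at 0.41 ± 0.13 and 0.39 ± 0.12. DESeq2 called none of Nfkb1, Bcl3 and Nfkbie, nor Rel in macrophage-rich spots, and without Early none of the 4 subunit genes called in macrophage-rich spots was called in edgeR.

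Separate pieces of tissue gave a view of the spread within an area. On the Early area 4 of 12 connected pieces had at least 100000 UMIs, and the summed level of the 10 genes in them ranged from 15.0 to 22.6 UMIs per 10000, above the 12.3 of the whole WT area in each piece. Nfkbia ranged from 3.43 to 4.95 over the 4 pieces, Icam1 from 2.37 to 4.78 and Tnfaip2 from 0.694 to 1.98, while Relb ranged from 2.05 to 2.37. The range between pieces was thus wider for Icam1 and Tnfaip2 than for Relb. In the 4 Early pieces Tnfaip2 was at 0.694, 0.758, 0.935 and 1.98, against 0.713 over the WT area. On Advanced 2 the 2 pieces of that size had summed levels of 16.7 and 17.6, and WT and Advanced 1 had 1 such piece each. A piece is not known to be a single node.

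By likeness of level over the 8 rim and interior sums of the 4 areas, the gene nearest to Nfkbia among 8865 genes was Syngr2 (Pearson r = 0.972), a membrane protein of vesicles, and the nearest to Relb was Mknk1 (r = 0.996), a kinase. Sirpa, a myeloid inhibitory receptor, was nearest to Tnfaip3 (r = 0.981), Stap1 to Nfkb2 (r = 0.983), Lpcat2 to Icam1 (r = 0.969) and Casp8 to Tnfaip2 (r = 0.968). For Tnf it was Dcun1d4 (r = 0.963), for Tnfrsf1a the mast cell gene Cma1 (r = 0.945), for Tnfrsf1b Aga (r = 0.935) and for Birc3 Isca2 (r = 0.981). The 8 sums come from 4 libraries, and r values this high are the top of many genes, so they are given as descriptions only.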

How the data were processed

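The deposited matrices hold UMI counts per gene and spot, which the authors made with Space Ranger 1.1.0 on mm10/GRCm38 and which are restricted to spots under tissue. Seurat 4.0.3 and R 4.1.1 are also named in the submitters' notes. No spot was removed except in the marker-rich splits and in the alternatives with a UMI minimum. The splits used spots of at least 500 UMIs, on WT 356 of 833. No doublet caller was run, since a spot is a region. The 393 immunoglobulin genes were left out in 1 alternative. UMIs were summed over spots per area, zone or spot class. Fits used edgeR 4.0.16 in R 4.3.3 (quasi-likelihood, TMM, at least 20 UMIs over the sums, Benjamini-Hochberg over all genes, 0.05), and the steps were tested on simulated data. DESeq2 1.42.0 was an alternative. Ratios of 1 area to 1 had exact conditional binomial intervals at 95%.

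The 10 genes and all lists were chosen with earlier results of these data known. Named pathway genes were the 3 largest called rises and falls per list, and like genes the 3 of highest Pearson correlation of log2 (UMIs per 10000 + 0.1), of which the first is given. Whether samples came from 1 litter or batch is not given in the sources used here, and 1 slide held all 4 areas.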

Additional observations from a re-analysis of the deposited data

Results flagged for a closer look

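For 6 of the 10 genes the log2 rim to interior difference had 1 sign throughout a group and the opposite sign throughout another. WT and Early are groups of 1 area each, so 1 value set the sign of either group. The share of all genes that meet this rule was not taken, so the count is not read as a trait of these genes. In none of the 6 was the difference between groups tested. Tnf was at -1.64 on WT against 0.35 on Early, 0.67 on Advanced 1 and 0.23 on Advanced 2, with 10 and 8 UMIs behind the WT value. Tnfrsf1a was at 0.24 on WT, -0.39 on Early, 0.0049 on Advanced 1 and 0.21 on Advanced 2. Tnfaip3 was at -0.19 on WT and -0.23 on Early against 0.23 on Advanced 1 and 0.084 on Advanced 2. Icam1 was at 0.15 on WT, -0.15 on Early, 0.15 on Advanced 1 and 0.036 on Advanced 2. Nfkbia was at -0.027 on WT, 0.037 on Early, 0.14 on Advanced 1 and -0.010 on Advanced 2, and Birc3 at 0.0053, -0.033, 0.18 and -0.13 in that order. The WT and Early values of Nfkbia and Birc3, which set their opposite signs, are smaller than the shift of 0.09 in the median of all genes between library size scalings. In spots of at least 500 UMIs Nfkbia was at 0.14 on WT and 0.039 on Early, so its opposite signs were lost, and Tnfrsf1a on Advanced 1 was at -0.035. Nfkb2 gained opposite signs in those spots, at -0.032 on WT and -0.021 on Early against 0.23 on Advanced 1 and 0.085 on Advanced 2. For Tnfrsf1b the areas also differed in sign, but within the Advanced group, at -0.056 on WT, -0.65 on Early and -0.15 on Advanced 1 against 0.44 on Advanced 2.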

How the results depend on the processing

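Of 920 values of single genes under the alternatives, none changed the direction of a called difference, 21 lost a call and 9 gained 1. Only genes called in the main fits could lose a call, namely 5, 5 and 1 in the macrophage, follicle and capsule splits. The 21 lost calls are among the alternatives of these, so 920 is not their base. Contrasts of conditions without 1 Advanced area had no test. Counts of all genes called moved more. With DESeq2 they were 420 in place of 914 for rim against interior, 7 in place of 157 for Advanced against Early and 35 in place of 279 for Advanced against WT, 40 in place of 128 in the WT rim contrast, 1 in place of 34 and 1 in place of 38 in the interior contrasts with Early and WT, and 660, 1327, 52 and 373 in place of 1394, 2806, 188 and 1225 for the sinus macrophage, follicle, T cell zone and capsule and fat splits. Of the 10 genes, DESeq2 called 3 in place of 5 in the macrophage split and 0 in place of 1 in the capsule split. With total UMIs as the library size the interior contrasts with Early and WT gave 3 and 11, and 1 of the 10 genes was called for rim against interior (Tnfaip2) and 1 for Advanced against WT (Relb). Without immunoglobulin genes 1 was called for Advanced against WT (Tnfrsf1a). With no filter on low counts the rim contrasts with Early and WT gave 88 in place of 15 and 317, with 1 of the 10 genes called in the latter (Tnf, adjusted p = 0.0367 in edgeR). With spots of at least 500 UMIs, rim against interior gave 579 with 1 of the 10 called (Tnfaip2), and the rim contrasts gave 33 and 220. With a rim 1 step wider they gave 47 and 223, and the interior contrasts 0 and 4. Without the area block, rim against interior gave 139. With the richest 10% of spots the follicle split gave 1341, with 3 of the 10 genes called. Early against WT was also counted in follicle-rich spots alone, an alternative added after seeing the data. This left 2 of the 10 genes with an interval above 1, against 3.94% of all genes. Over all spots these were 8 and 13.7%. By level 9 of the 10 ratios were above 1 in follicle-rich spots, and the share of all genes by level was not taken.

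Leaving out 1 area at a time gave 365 to 1081 calls for rim against interior with 0 to 1 of the 10 genes, 645 to 1308 with 2 to 5 for sinus macrophage, 1800 to 2564 with 4 to 5 for follicle, 76 to 298 with 0 for T cell zone, and 572 to 1178 with 0 to 1 for capsule and fat. The lowest values were without Advanced 2 for rim against interior, without Advanced 1 for T cell zone, and without Early for the other splits. No contrast of conditions was paired, since the groups held different mice and their replicate numbers do not link areas. The area was the block wherever an area held both kinds of spots. With 1 area each for WT and Early, no contrast of conditions could be checked by leaving out an area of those groups. Depth limits Tnf, and on WT the values of interior, follicle-rich and T cell zone-rich spots, which held 373714, 262590 and 314175 UMIs.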
